A study of Mus musculus with 2 samples.

Results

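The mRNAs described here encode 37 proteins of fuel oxidation and its surroundings, of 24984 genes in the count matrices. They were chosen by gene symbol from their known roles: 16 are enzymes or enzyme subunits of the tricarboxylic acid (TCA) cycle, 19 act in fatty acid oxidation, and 2, Chchd10 and Ckb, are mitochondrial or energy-related proteins outside both pathways. Most act in mitochondria, but Aco1, Idh1 and Mdh1, which are counted with the TCA cycle here, are the cytosolic forms of enzymes of the cycle, and Ckb is cytosolic too. All 37 symbols were found in both libraries. The comparison of interest was between muscle stem cells (MuSCs) and the other mononuclear cells of dystrophic muscle, and between MuSCs with and without the transcription factor YY1.

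Live mononuclear cells were sorted from the hind limb muscles of mdx mice, which lack dystrophin and undergo chronic cycles of fibre damage and repair, and were profiled by droplet-based single-cell RNA-seq. The Ctrl library came from Pax7CreERT2/R26YFP, Yy1+/+, mdx mice (labelled as having no treatment) and the dKO library from Pax7CreERT2/R26YFP, Yy1 f/f, mdx mice (labelled YY1 dKO), in which tamoxifen induces deletion of Yy1 in Pax7-expressing MuSCs, a deletion that their descendants keep. Both genotypes carried the Cre driver, the reporter and the mdx mutation, the cells of several mice were pooled into 1 suspension per genotype, and per the study's methods Ctrl and dKO mice alike received tamoxifen when young, about a month before the muscles were taken, which the labels do not give. With 1 library per genotype there was no replicate, no test was run, and every interval below covers counting error only. Intervals of levels are exact 95% Poisson intervals, and those of ratios are exact 95% conditional binomial intervals.

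The TCA cycle oxidises acetyl-CoA to carbon dioxide and delivers electrons to the respiratory chain, and fatty acid oxidation shortens acyl chains in repeated rounds of dehydrogenation, hydration, dehydrogenation and thiolysis to supply that acetyl-CoA. Quiescent MuSCs are known for reliance on fatty acid oxidation, while activated MuSCs raise glycolysis, and differentiating myoblasts build the large mitochondrial content of muscle. YY1 is a zinc finger factor known to act on genes of mitochondrial and glycolytic metabolism in muscle.

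After removal of cells with fewer than 500 genes and of predicted doublets, 4010 cells remained in the Ctrl library and 3079 in the dKO library. The kept cells had medians of 7880 and 7806 unique molecular identifiers (UMIs). Before these removals the libraries held 45556596 and 33815155 UMIs in all. Cell classes were rebuilt by clustering and named from marker genes, so each carries the suffix "-like" and may differ from the classes of the study. The MuSC-like class held 118 Ctrl and 30 dKO cells, with 2312018 and 618862 UMIs, so the dKO values rest on few cells. Of the 12 MuSC markers, 12 were detected in Ctrl and 11 in dKO MuSC-like cells. Pax7, the defining MuSC factor, was at 56.7 and 50.1 counts per 1000000 UMIs (CPM), against 0 and 0.360 CPM in fibro-adipogenic progenitor-like (FAP-like) cells. Calcr, a marker of quiescent MuSCs, was at 19.9 and 0 CPM. The 10 leading genes of the cluster were Myog, Mymx, Gal, Chrna1, Chrng, Mymk, Ttn, Ankrd1, Bves and Popdc3, of which 3 belong to the list of myogenic differentiation genes and only 1, Myog, to the MuSC markers, so the name MuSC-like covers Pax7-expressing cells as well as differentiating myoblasts. Yy1, the deleted gene, had 369 UMIs (159.6 CPM) in Ctrl and 3 UMIs (4.85 CPM) in dKO MuSC-like cells. A list of 12 muscle fibre genes was summed to 3176 CPM in Ctrl and 4702 CPM in dKO MuSC-like cells, a list of 5 red cell genes to 0.865 and 113 CPM and a list of 10 cell cycle genes to 864 and 477 CPM, and the part of these in the results was not tested. A total of 7 cell barcodes occurred in both libraries.

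The 37 mRNAs together took a larger share of the transcriptome in MuSC-like cells than in most other classes. Summed, they were at 3645 CPM (3567 to 3724) in Ctrl against 3067 CPM (2930 to 3208) in dKO MuSC-like cells, from 8427 and 1898 UMIs. Smooth muscle and pericyte-like cells were close to them, at 3120 and 3318 CPM. Cycling monocyte and macrophage-like (MO/MP-like) cells came next, at 2828 and 2683 CPM. Non-cycling MO/MP-like cells were at 2136 and 1828 CPM, FAP-like cells at 1876 and 1755 CPM, and endothelial-like cells at 1432 and 1339 CPM. Neutrophil-like cells were lowest in both libraries, at 761 and 896 CPM. In Ctrl the intervals of MuSC-like and smooth muscle/pericyte-like cells did not overlap, with a ratio of 1.17 (1.12 to 1.22), whereas in dKO the ratio of 0.924 (0.85 to 1.01) did not separate these classes beyond counting error. This order rested on a few genes and cells. Without Ckb and Chchd10 the dKO ratio was 1.15 (1.05 to 1.26). By the median cell, Ctrl MuSC-like cells (2570 CPM) were below smooth muscle/pericyte-like (2870 CPM) and cycling MO/MP-like cells (2710 CPM), and without the differentiating cells described below their sum of 2794 CPM (2690 to 2901) was below the 3120 CPM (3000 to 3243) of smooth muscle/pericyte-like cells. The remaining ratios were wider apart: MuSC-like cells exceeded FAP-like cells 1.94-fold (1.9 to 1.99) in Ctrl and 1.75-fold (1.67 to 1.83) in dKO.

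The TCA cycle sum stood further above FAP-like, MO/MP-like and endothelial-like cells in the MuSC-like class than the fatty acid oxidation sum did. The 16 TCA cycle mRNAs were summed to 2072 CPM (2014 to 2132) in Ctrl MuSC-like cells and 1958 CPM (1850 to 2072) in those of dKO, against 864 and 815 CPM in FAP-like cells, a ratio of 2.40 in each library. The 19 fatty acid oxidation mRNAs were at 1291 CPM (1245 to 1338) and 1094 CPM (1013 to 1180) in MuSC-like cells, against 912 and 853 CPM in FAP-like cells, ratios of 1.42 and 1.28. Against MO/MP-like cells the TCA ratios were 2.19 and 2.56, and the fatty acid oxidation ratios 1.39 and 1.38. Against endothelial-like cells they were 3.03 and 2.97, and 1.82 and 1.69. The order of the sums was thus the same in both libraries and against each of these 3 classes. Against smooth muscle/pericyte-like cells the TCA ratios were 1.56 and 1.36 and the fatty acid oxidation ratios 1.13 and 0.898 (0.780 to 1.04), and against cycling MO/MP-like cells 1.53 and 1.55, and 1.11 and 1.03 (0.921 to 1.15). In dKO the fatty acid oxidation sum was therefore not above either of these classes beyond counting error.

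Gene by gene, MuSC-like cells were the highest of 11 classes for 18 of the 37 mRNAs in Ctrl and for 13 in dKO, and among the first 3 classes for 30 and 22. The 10 mRNAs for which they were highest in both libraries were Fh1, Idh3a, Idh2, Dlst, Mdh2 and Suclg1 of the TCA cycle and Acadl, Acads, Eci2 and Etfa of fatty acid oxidation. Smooth muscle/pericyte-like cells were highest for 6 mRNAs in Ctrl and 12 in dKO, and neutrophil-like cells lowest for 27 and 16. The neutrophil-like cells had medians of 2385 and 1663.5 UMIs per cell. The share of all genes with such ranks was not computed, so these counts are a description and nothing about the members is read from them.

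Among genes with a mean of at least 20 CPM over MuSC-like and FAP-like cells, 14 of 34 members were 2-fold or more higher in Ctrl MuSC-like cells than in FAP-like cells, against 18.0% of all 5952 genes tested, and 1 of 34 was 2-fold or more lower, against 17.4%. In dKO the counts were 11 of 31 higher, against 21.0% of 5894 genes, and 4 of 31 lower, against 18.1%. The median log2 ratio of the members was 0.78 in Ctrl and 0.55 in dKO, and that of all genes 0.19 and 0.28. Without the differentiating cells described below the Ctrl count was 8 of 34, beside 13.9% of all genes, and without the cell richest in each gene the dKO count was 7 of 30, beside 12.2%. Against MO/MP-like cells, 15 of 33 members in Ctrl and 15 of 30 in dKO were 2-fold or more higher, beside 28.5% and 30.8% of all genes. Against endothelial-like cells the counts were 20 of 32 and 16 of 28, beside 24.0% and 26.7%, and against smooth muscle/pericyte-like cells 8 of 32 and 6 of 30, beside 20.1% and 23.5%. The last of these shares lay closest to those of all genes.

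Ordered by the smaller of the ratios of MuSC-like to FAP-like cells in the 2 libraries, Idh3a came first and Mdh2 next, although in Ctrl alone Chchd10 had the higher log2 ratio of 4.23 and in dKO alone Mdh2 exceeded Idh3a. Idh3a, the catalytic subunit of the NAD-dependent isocitrate dehydrogenase 3 of the cycle (GRCm38 chr9:54586334-54604661, plus strand), was at 144 CPM in Ctrl and 128 CPM in dKO MuSC-like cells and at 26.5 and 29.4 CPM in FAP-like cells, log2 ratios of 2.45 and 2.12. In both libraries no other class exceeded 52.3 CPM. Mdh2, the mitochondrial malate dehydrogenase that regenerates oxaloacetate (chr5:135778480-135790398, plus strand), was at 490 and 654 CPM in MuSC-like cells and at 137 and 143 CPM in FAP-like cells, log2 ratios of 1.84 and 2.19. Its highest value in another class was 255 CPM, in dKO smooth muscle/pericyte-like cells.

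The next members of the order were spread over both pathways. Idh2, the mitochondrial NADP-dependent isocitrate dehydrogenase, was at 211 and 124 CPM in MuSC-like cells and 61.3 and 47.9 CPM in FAP-like cells. Acadl, the long-chain acyl-CoA dehydrogenase, was at 218 and 213 CPM against 72.4 and 68.7 CPM, log2 ratios of 1.59 and 1.63. Fh1, or fumarase, was at 93.4 and 93.7 CPM against 31.8 and 31.5 CPM, and differed between the libraries by less than its counting error in both classes. Suclg1, the subunit that both forms of succinyl-CoA ligase share, was at 173 and 181 CPM against 66.1 and 63.9 CPM. Acads, the short-chain acyl-CoA dehydrogenase, had log2 ratios of 1.2 and 1.86. The dehydrogenase components Dlst and Dld and the citrate synthase Cs, which condenses acetyl-CoA with oxaloacetate, had log2 ratios of 1.24, 1.03 and 1.19 in Ctrl and of 1.12, 1.24 and 1.03 in dKO.

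Other members stood lower in MuSC-like cells than in at least some of the large classes. Idh1, the cytosolic NADP-dependent isocitrate dehydrogenase, was at 25.1 CPM in Ctrl and 8.08 CPM in dKO MuSC-like cells, below FAP-like cells (69.6 and 47.7 CPM) and MO/MP-like cells (85.3 and 55.6 CPM). Its mitochondrial paralog Idh2 had the opposite order between these classes. Ogdh, the first component of the oxoglutarate dehydrogenase complex, was at 86.5 and 67.9 CPM in MuSC-like cells and highest in smooth muscle/pericyte-like cells (176 and 238 CPM). Cpt1a, which forms acylcarnitines at the outer mitochondrial membrane, was at 34.6 and 38.8 CPM, below MO/MP-like cells (51.4 and 47.9 CPM), and Cpt2, which reverses that step inside, was at 14.3 and 8.08 CPM against 12.8 and 14.0 CPM in FAP-like cells. For both of these and for the acylcarnitine carrier Slc25a20 (15.1 and 9.70 CPM, against 12.4 and 11.6 CPM in FAP-like cells), which together admit long acyl chains, the difference between MuSC-like and FAP-like cells did not exceed counting error in either library.

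**Figure D1:**
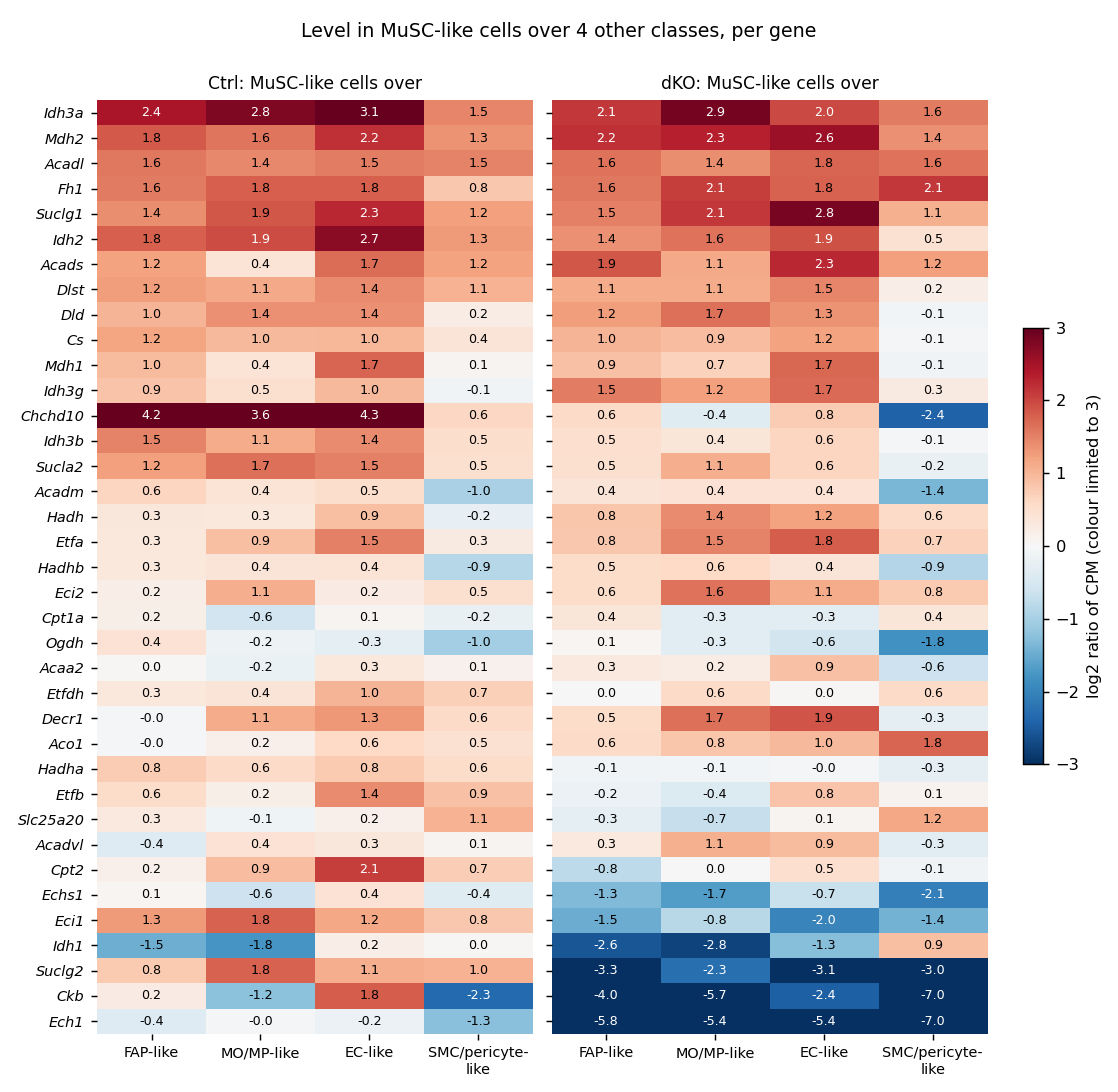
Log2 ratio of MuSC-like cells to FAP-like, MO/MP-like, endothelial-like and smooth muscle/pericyte-like cells for each member, in Ctrl and dKO. The members are ordered by the smaller of their MuSC-like to FAP-like ratios in the libraries, so both pathways are mixed. Most TCA cycle members lie above 0 against FAP-like cells, led by Idh3a (2.45 in Ctrl, 2.12 in dKO) and Mdh2 (1.84 and 2.19), whereas Idh1 (-1.47 and -2.56) lies below 0 in both libraries.

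Between the libraries, the summed level in MuSC-like cells was lower in dKO, at a ratio of 0.841 and a log2 ratio of -0.25 (-0.32 to -0.18). The median cell had 2570 CPM in Ctrl and 2066 CPM in dKO. For the TCA cycle sum the log2 ratio was -0.08 (-0.17 to 0.01), within counting error of 0. The fatty acid oxidation sum had a log2 ratio of -0.24 (-0.36 to -0.12). Chchd10 and Ckb together were at 282 CPM in Ctrl and 14.5 CPM in dKO, from only 9 UMIs in dKO, and without them the sum of the other members had a log2 ratio of -0.14 (-0.21 to -0.07). A difference of this size was not particular to MuSC-like cells, since the log2 ratio of the whole sum was -0.22 in MO/MP-like and -0.10 in FAP-like cells, and that of the TCA cycle sum was -0.30 in MO/MP-like cells.

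The summed level hid a few large gaps among many small ones. Of the 37 members, 33 had a mean of at least 20 CPM over the MuSC-like cells of both libraries, and 11 of these were 1.5-fold or more lower in dKO, beside 13.1% of 5728 genes tested. None of the 33 was 1.5-fold or more higher, beside 11.9% of genes. At 4-fold or more lower, a limit chosen after the values were seen, there were 5 of 33 members, beside 0.873% of genes, but all 5 had passed the 20 CPM limit only through Ctrl, so this count is a description and nothing is read from it. The median log2 ratio was -0.16 for the members and 0.03 for all genes. Of the 11 lower members, 6 (Suclg2, Echs1, Ech1, Eci1, Chchd10 and Ckb) passed the 20 CPM limit only through Ctrl, and the 5 that reached it in both libraries were Idh2, Idh3b, Sucla2, Hadha and Etfb. Among the 26 members at 20 CPM or more in both libraries these 5 stood beside 9.73% of all such genes, and the median log2 ratio was -0.01 for the members and 0.04 for all of these genes. The 4 members under the limit were Idh1, Cpt2, Slc25a20 and Etfdh.

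**Figure D2:**
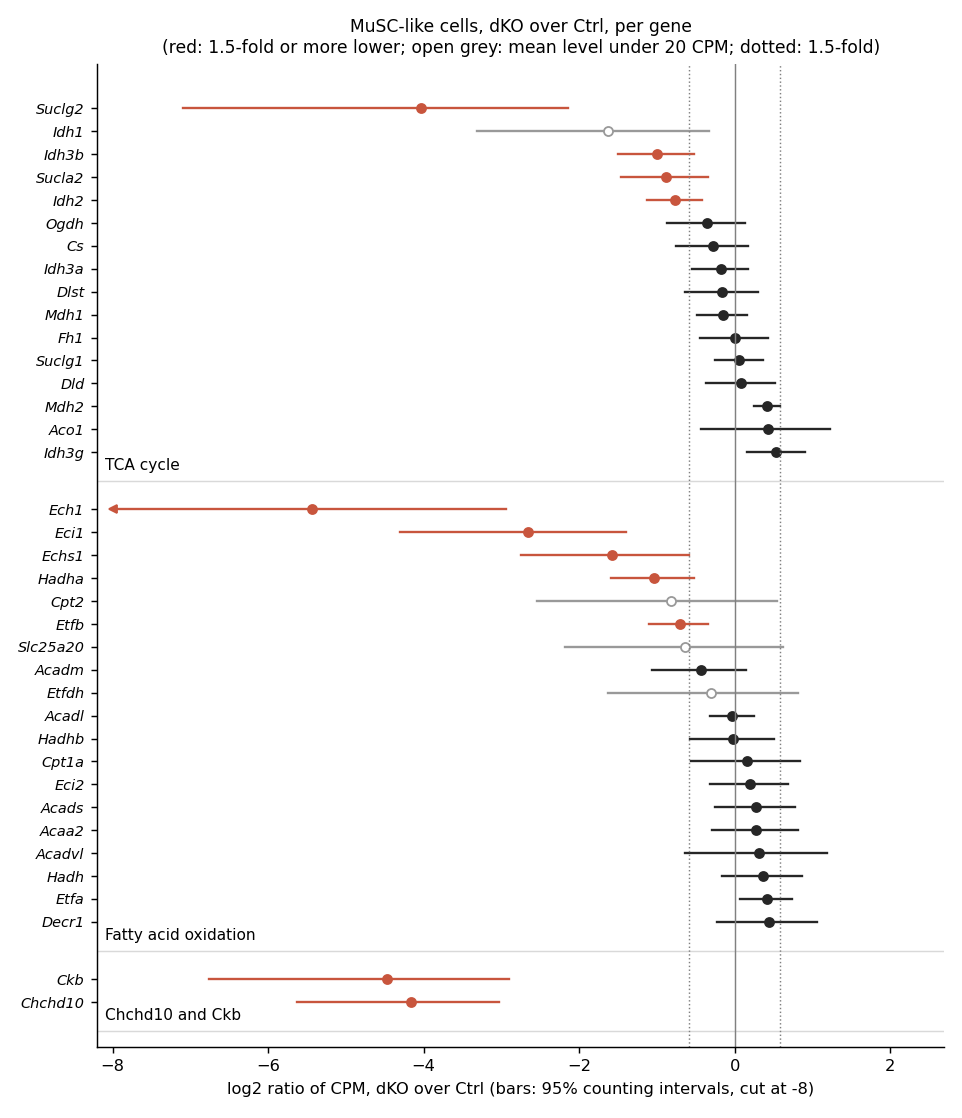
Log2 ratio of dKO to Ctrl in MuSC-like cells for each of the 37 members, grouped by role, with exact 95% intervals for counting error and lines at 1.5-fold. Ech1 (-5.44), Ckb (-4.47), Chchd10 (-4.17), Suclg2 (-4.03) and Eci1 (-2.66) stand apart, while Fh1, Suclg1, Acadl and Hadhb lie near 0.

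Ech1 and Eci1 encode isomerases that move double bonds of unsaturated acyl chains so that oxidation can proceed. Ech1 (chr7:28825217-28832247, plus strand) had 162 UMIs in Ctrl MuSC-like cells, in 60 of the 118 cells, and 1 UMI in the 30 dKO cells. Its level was 70.1 CPM (59.7 to 81.7) in Ctrl against 1.62 CPM (0.0409 to 9.0) in dKO, a log2 ratio of -5.44 (-10.75 to -2.94). Eci1 (chr17:24426641-24439348, plus strand) had 118 and 5 UMIs, that is 51.0 CPM (42.2 to 61.1) and 8.08 CPM (2.62 to 18.9), a log2 ratio of -2.66 (-4.31 to -1.40). The intervals of the libraries did not overlap for either gene. Eci2, another enoyl-CoA isomerase, was at 64.9 CPM in Ctrl and 74.3 CPM in dKO, and Decr1, the reductase that handles conjugated double bonds, was at 34.6 and 46.9 CPM, so the lower level did not extend to every auxiliary enzyme of unsaturated chains.

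Suclg2 encodes the GTP-forming subunit of succinyl-CoA ligase (chr6:95473009-95718800, minus strand). It had 122 UMIs in 57 Ctrl cells and 2 UMIs in 2 dKO cells, or 52.8 CPM (43.8 to 63.0) and 3.23 CPM (0.391 to 11.7), a log2 ratio of -4.03 (-7.09 to -2.15). Sucla2, the ATP-forming subunit that takes its place in the other form of the enzyme, was at 95.2 CPM (83.0 to 109) and 51.7 CPM (35.4 to 73.0), a log2 ratio of -0.88 (-1.46 to -0.34). Suclg1, which pairs with either of them, had a log2 ratio of 0.06 (-0.25 to 0.37). The 3 subunits thus had 3 separate ratios whose intervals did not overlap each other.

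Ckb encodes brain-type creatine kinase, which buffers ATP, and Chchd10 a protein of the mitochondrial intermembrane space. Ckb (chr12:111669361-111672338, minus strand) had 248 and 3 UMIs, or 107 CPM (94.3 to 121) and 4.85 CPM (1.00 to 14.2), a log2 ratio of -4.47 (-6.76 to -2.90), and a single Ctrl cell held 20.2% of its Ctrl UMIs. Chchd10 (chr10:75933130-75937747, plus strand) had 403 and 6 UMIs, or 174 CPM (158 to 192) and 9.70 CPM (3.56 to 21.1), a log2 ratio of -4.17 (-5.62 to -3.03). Its 6 dKO UMIs lay in 3 cells. Both were thus nearly undetected in dKO MuSC-like cells at this depth.

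For these 5 genes the sequence around the transcription start is shown, to show the letters beside the members with the lowest ratios, a choice made from the values from which nothing is concluded. The stretches are from the RefSeq promoter table (GRCm38.p6), 5′ to 3′ on the strand of the gene, and capitals mark matches to AANATGGC, the core of the YY1 motif. They lie at chr7:28825188-28825337 (Ech1, plus strand), chr17:24426563-24426712 (Eci1, plus), chr10:75932980-75933129 (Chchd10, plus), chr12:111672339-111672488 (Ckb, minus) and chr6:95718847-95718996 (Suclg2, minus).

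Ech1: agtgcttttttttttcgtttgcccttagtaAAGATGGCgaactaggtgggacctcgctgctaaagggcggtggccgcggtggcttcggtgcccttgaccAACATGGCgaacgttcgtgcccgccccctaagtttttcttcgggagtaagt

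Eci1: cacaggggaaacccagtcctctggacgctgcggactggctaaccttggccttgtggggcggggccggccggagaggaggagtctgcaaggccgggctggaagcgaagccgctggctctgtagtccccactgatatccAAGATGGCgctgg

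Chchd10: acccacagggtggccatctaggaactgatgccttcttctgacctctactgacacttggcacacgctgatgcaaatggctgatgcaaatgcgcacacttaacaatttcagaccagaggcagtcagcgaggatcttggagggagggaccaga

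Ckb: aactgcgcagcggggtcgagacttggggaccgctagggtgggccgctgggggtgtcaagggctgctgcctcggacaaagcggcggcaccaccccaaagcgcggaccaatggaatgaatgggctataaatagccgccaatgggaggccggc

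Suclg2: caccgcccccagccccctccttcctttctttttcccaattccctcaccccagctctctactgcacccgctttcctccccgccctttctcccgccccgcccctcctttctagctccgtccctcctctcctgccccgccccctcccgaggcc

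The Ech1 stretch held 2 matches, which begin 120 and 51 bases before the RefSeq start site, and the Eci1 stretch held 1, beginning at base 18 after the start. The GENCODE models of Ech1 and Eci1 begin further upstream than the RefSeq start used here. The stretches of Chchd10, Ckb and Suclg2 held no match to these letters. The search covered both strands of 300 bases around each start for 34 of the 37 members (40 promoters), and the remaining members are Idh3a, Decr1 and Acaa2. Matches were found for 5 members, Idh3b, Idh3g, Ogdh, Ech1 and Eci1, and in 6.05% of all 32851 promoters or 6.96% of 27025 genes. Of these 5 members, Ech1, Eci1 and Idh3b were 1.5-fold or more lower in dKO MuSC-like cells and Idh3g and Ogdh were not, with log2 ratios of 0.54 and -0.35. The shares beside them were 11 of 33 members and 13.1% of all genes. Ech1 and Eci1 passed the 20 CPM limit only through Ctrl, and a link between match and level was not tested. The motifs of other factors known for mitochondrial genes were also searched. TNAAGGTCA, the site of oestrogen-related receptors, matched no member and 1.28% of promoters, and GCGCATGCG, the site of NRF1, matched Ogdh, Acadm and Etfdh and 1.75% of promoters. Matches of different motifs did not overlap in the promoters of the members, and a match is a description of the sequence only.

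Partner subunits of the same enzyme had different ratios in 3 further cases. Among the subunits of isocitrate dehydrogenase 3, Idh3b was at 132 CPM (118 to 148) in Ctrl against 66.3 CPM (47.5 to 89.9) in dKO, a log2 ratio of -1.0 (-1.51 to -0.52). Idh3g, the other regulatory subunit, was at 96.9 and 141 CPM, a log2 ratio of 0.54 (0.16 to 0.90), and the catalytic Idh3a had -0.18 (-0.55 to 0.18). Idh3b was therefore lower in dKO beyond counting error, Idh3g higher, and Idh3a neither. The Idh3g log2 ratio was 1.03 in the differentiating cells described below, of which dKO had 5, and 0.18 in the other MuSC-like cells. In the mitochondrial trifunctional protein, which performs the last 3 steps on long chains, Hadha was at 116 CPM (102 to 131) and 56.6 CPM (39.4 to 78.7), a log2 ratio of -1.04 (-1.59 to -0.52), while Hadhb, at 62.3 and 61.4 CPM, had -0.02 (-0.58 to 0.50). In the electron transfer flavoprotein, which passes electrons from acyl-CoA dehydrogenases towards the respiratory chain, Etfb was at 182 CPM (165 to 200) and 111 CPM (86.7 to 141), a log2 ratio of -0.71 (-1.10 to -0.34), and Etfa at 122 and 162 CPM, with 0.41 (0.07 to 0.75). The intervals of Etfa and Etfb lay on opposite sides of 0, and those of Hadha and Hadhb overlapped.

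The other lower members were Idh2 and Echs1. Idh2 was at 211 CPM (193 to 231) and 124 CPM (98.2 to 156), a log2 ratio of -0.76 (-1.13 to -0.41), and remained above its FAP-like level in dKO. Echs1, the short-chain enoyl-CoA hydratase, had 100 and 9 UMIs, or 43.3 CPM (35.2 to 52.6) and 14.5 CPM (6.65 to 27.6), a log2 ratio of -1.57 (-2.74 to -0.59). Mdh2 had the widest gap in the other direction relative to its error, with 490 CPM (462 to 519) in Ctrl against 654 CPM (592 to 721) in dKO, a log2 ratio of 0.42 (0.25 to 0.58), which did not reach 1.5-fold.

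Of the other 22 members with a mean of at least 20 CPM, 19 had intervals that included a log2 ratio of 0, the exceptions being Idh3g, Etfa and Mdh2. In the TCA cycle, Fh1 (0.00), Suclg1 (0.06), Dld (0.09), Mdh1 (-0.16), Dlst (-0.16), Cs (-0.28) and Ogdh (-0.35) had log2 ratios near 0. Aco1, the cytosolic aconitase, had 0.43 (-0.44 to 1.23). In fatty acid oxidation, Acadl (-0.03) and Acads (0.27) lay near 0, as did Acaa2 (0.28), the thiolase that releases acetyl-CoA. The medium-chain dehydrogenase Acadm had -0.43 (-1.06 to 0.15) and the very long-chain dehydrogenase Acadvl 0.32 (-0.63 to 1.19). Hadh, which oxidises short hydroxyacyl chains, had 0.36 (-0.17 to 0.86), Decr1 0.44 (-0.23 to 1.07), Eci2 0.20 and Cpt1a 0.16 (-0.56 to 0.84). Smaller gaps than these intervals allow were not detectable at this depth. Under the 20 CPM limit, Idh1 had 58 and 5 UMIs (log2 ratio -1.63, -3.31 to -0.33). Cpt2 (33 and 5 UMIs), Slc25a20 (35 and 6) and Etfdh (37 and 8), which takes electrons from the flavoprotein to ubiquinone, had intervals that included 0.

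The 5 members with the largest gaps differed less between the libraries in most other classes. Ech1 was at 91.8 CPM in Ctrl and 88.8 CPM in dKO FAP-like cells, at 71.5 CPM and 66.1 CPM in MO/MP-like cells and at 167 and 207 CPM in smooth muscle/pericyte-like cells. Of the 10 other classes in which Ech1 had a mean of at least 20 CPM, it was 1.5-fold or more lower in dKO in 2, neutrophil-like (28 and 4 UMIs) and B cell-like cells (12 and 3 UMIs), and higher in 1, dendritic-like cells (58.2 and 94.2 CPM). Eci1 was past 1.5-fold in 0 of 7 such classes, Suclg2 in 0 of 4 and Ckb in 0 of 9. Ckb, for example, was at 543 and 609 CPM in smooth muscle/pericyte-like cells, 527 and 584 CPM in dendritic-like cells and 90.3 and 79.9 CPM in FAP-like cells. These 4 genes were singled out for their gap in MuSC-like cells, and library and genotype cannot be told apart.

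Chchd10 behaved differently from the other 4. It was 1.5-fold or more lower in dKO in 3 of the 4 other classes with a mean of at least 20 CPM. In smooth muscle/pericyte-like cells it was at 113 and 51.8 CPM (log2 ratio -1.13), in cycling MO/MP-like cells at 90.3 and 38.6 CPM (-1.23), and in B cell-like cells at 229 and 151 CPM. In the fourth, T cell-like cells, the log2 ratio was -0.58. Chchd10 therefore had lower values in the dKO library in classes that do not descend from Pax7-expressing cells as well, although by less than in MuSC-like cells.

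**Figure D3:**
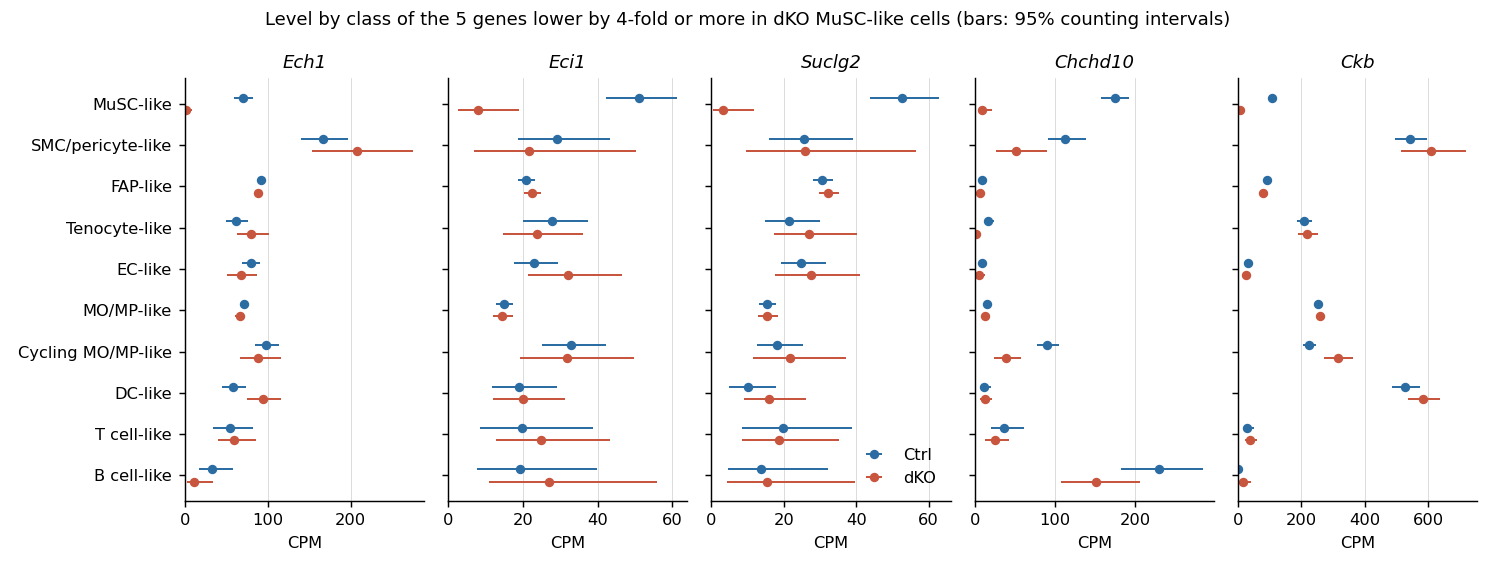
Levels (CPM) of Ech1, Eci1, Suclg2, Chchd10 and Ckb in most cell classes of the Ctrl and dKO libraries, with exact 95% Poisson intervals. In MuSC-like cells all 5 are lower in dKO (Ech1 70.1 against 1.62 CPM), while in FAP-like and MO/MP-like cells the points of the libraries lie close together (Ech1 91.8 against 88.8 CPM in FAP-like cells).

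The same limit was applied in FAP-like, MO/MP-like, endothelial-like and smooth muscle/pericyte-like cells. In FAP-like cells 0 of 33 members were 1.5-fold or more lower in dKO, beside 1.08% of genes. In MO/MP-like cells 2 of 27 were, beside 1.28%, and these were Idh1 and Hadh. In endothelial-like cells it was 1 of 29, beside 7.84%, and in smooth muscle/pericyte-like cells 2 of 32, beside 17.6%. The counts 1.5-fold or more higher were 0 of 33, 0 of 27, 1 of 29 and 4 of 32 in the same order, beside 2.24%, 4.53%, 5.96% and 13.9%. The smaller classes had higher shares of all genes past the limit, and so had MuSC-like cells.

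The MuSC-like class held cells at different stages, and the members varied with stage. Cells with at least 2 UMIs of Myog, Mymk and Mymx together, which mark myoblast differentiation and fusion, made up 39 of 118 Ctrl cells (33.1% of cells, 57.9% of UMIs) and 5 of 30 dKO cells (16.7% and 36.4%). These differentiating cells were larger in UMIs, with medians of 36977 in Ctrl and 50565 in dKO, against 6580 and 6645 in the other MuSC-like cells, so the split also sorts cells by depth. In Ctrl, Pax7 was at 9.72 CPM in the differentiating and 121 CPM in the other cells.

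The sums of both pathways stood higher in the differentiating cells. The 37 mRNAs were summed to 4265 CPM in differentiating and 2794 CPM in other Ctrl cells, and to 3658 and 2728 CPM in dKO. The TCA cycle sum was 2413 against 1604 CPM in Ctrl and 2301 against 1762 CPM in dKO, and the fatty acid oxidation sum 1422 against 1112 CPM and 1317 against 966 CPM. In each library 29 of the 37 members were higher in the differentiating cells. Among genes with a mean of at least 20 CPM over both kinds of cells, these were 26 of 34 members in Ctrl, beside 49.4% of all genes, and 22 of 27 in dKO, beside 45.1%. In Ctrl the widest gaps were those of Chchd10 (274 against 38.0 CPM, log2 ratio 2.85) and Ckb (156 against 40.04 CPM, 1.96), followed by Slc25a20 (20.2 against 8.21 CPM, from 27 and 8 UMIs), Acaa2 (66.5 against 28.7 CPM) and Idh3a (182 against 93.4 CPM). Cpt1a (26.2 against 46.2 CPM) and Ech1 (60.5 against 83.2 CPM) were among the members with the opposite order. The list of muscle fibre genes was at 5253 CPM in differentiating and 322 CPM in other Ctrl cells, and at 12619 and 163 CPM in dKO, with 5 and 3 cells over 1% of UMIs from the list, and the part of fibre RNA in these levels was not tested. Before doublets were removed there was also a myocyte-like class of 26 Ctrl and 14 dKO cells, of which 25 and 11 were removed as doublets, which may include true cells. In that class the 37 members were at 6254 and 7549 CPM and the fibre list at 186110 and 216091 CPM. Chchd10 was there at 1649 and 2318 CPM, Ech1 at 118 and 267, Eci1 at 87.1 and 103, Suclg2 at 25.6 and 61.5 and Ckb at 56.3 and 61.5 CPM. The dKO values rest on 113 UMIs for Chchd10 and 3 to 13 for the others.

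**Figure D4:**
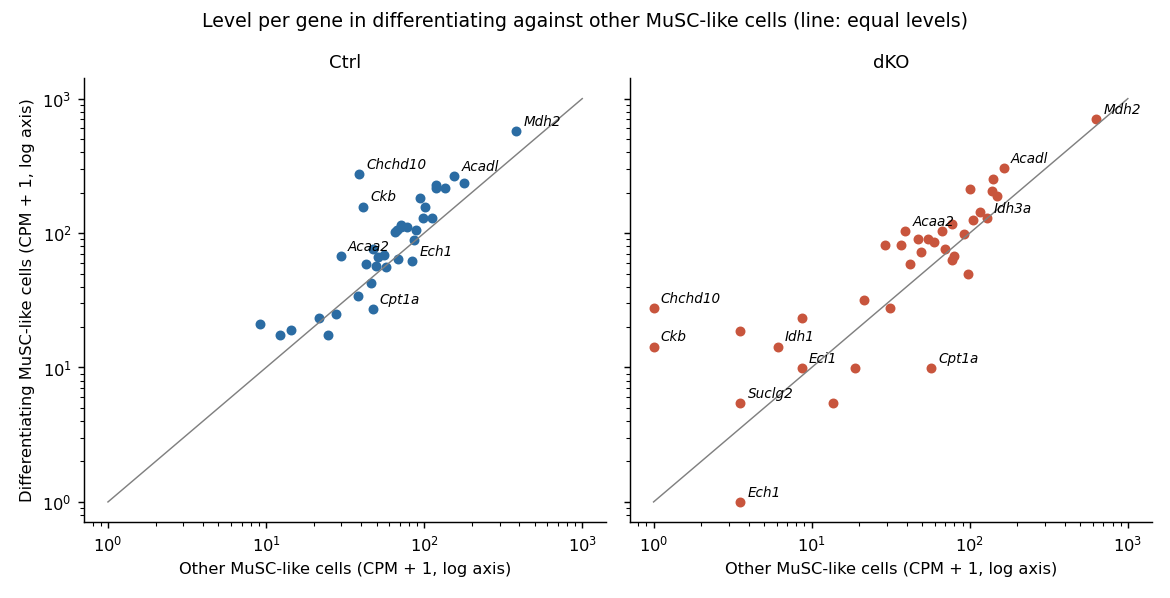
Levels (CPM, labelled log axes) of the members in differentiating MuSC-like cells against the other MuSC-like cells, for Ctrl and dKO, with the diagonal of equal levels. In each library 29 of the 37 members lie on the differentiating side, with Chchd10 (274 against 38.0 CPM) and Ckb (156 against 40.04 CPM) farthest from the diagonal in Ctrl.

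Since fewer of the dKO cells were differentiating, the libraries were also compared within each stage. Without the differentiating cells, the summed level was 2794 CPM in Ctrl and 2728 CPM in dKO, a log2 ratio of -0.03 (-0.14 to 0.07) in place of -0.25. Among the differentiating cells it was 4265 and 3658 CPM, a log2 ratio of -0.22 (-0.33 to -0.12). The median log2 ratio of members with a mean of at least 20 CPM was 0.03 in the other cells (32 members) in place of -0.16, whereas over all 37 members it was -0.18, so its direction depended on the filter. Ech1 (-5.03), Suclg2 (-4.25) and Eci1 (-2.46) had the lowest ratios in the other dKO cells for which a ratio could be formed. Suclg2 (-3.66), Eci1 (-2.70), Chchd10 (-3.36) and Ckb (-3.55) were also lower within the differentiating cells, while Chchd10 and Ckb had 0 UMIs in the other dKO cells. These genes were chosen for their gap in the same cells as a whole, so their ratios within each stage, from few dKO UMIs, are a description. Without Ckb and Chchd10 the log2 ratio of the sum was -0.08 (-0.19 to 0.02) among the differentiating cells, of which dKO had 5, and 0.01 (-0.10 to 0.11) among the other cells, so neither exceeded counting error. The difference between the stages was not tested. With no doublets removed, the log2 ratios in the whole class were -3.97 for Ech1, -1.81 for Eci1, -3.36 for Suclg2, -4.72 for Chchd10 and -3.37 for Ckb.

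Further genes of these pathways, from lists chosen by function, were read beside the members. Of 18 other genes of the TCA cycle and pyruvate entry, 11 had a mean of at least 20 CPM in MuSC-like cells, of which 3 were 1.5-fold or more lower in dKO and 0 higher, with a median log2 ratio of -0.28, where 13.1% of all genes were lower and 11.9% higher. The lower genes were the succinate dehydrogenase membrane anchors Sdhc (146 and 93.7 CPM) and Sdhd (143 and 61.4 CPM) and Pdhb, a subunit of pyruvate dehydrogenase (91.3 and 54.9 CPM).

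Of 19 genes of fatty acid uptake and activation, 6 reached the limit, with 3 lower (beside 13.1% of all genes) and 1 higher (beside 11.9%). Those lower were the fatty acid binding protein Fabp5 (203 and 115 CPM) and the acyl-CoA synthetases Acsl3 (96.0 and 61.4 CPM) and Acsl4 (84.3 and 43.6 CPM), and the thioesterase Acot13 was higher (22.1 and 35.6 CPM). Cpt1b, the muscle form of carnitine palmitoyltransferase 1, had 0 UMIs in the MuSC-like cells of both libraries, with upper limits of 1.60 CPM in Ctrl and 5.96 CPM in dKO. Of 10 genes of peroxisomal oxidation, 5 reached the limit and none of these was lower, while Abcd3, a transporter of the peroxisomal membrane, was among those higher (18.6 and 37.2 CPM).

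Of 10 regulators of oxidative metabolism, 5 reached the limit and 3 were lower (beside 13.1% of all genes), of which Yy1 is the deleted gene itself, and all 3 passed the limit only through Ctrl. The other two were the coactivator Ppargc1b (51.5 and 16.2 CPM) and Gabpa, a subunit of nuclear respiratory factor 2 (35.0 and 19.4 CPM), whose interval of the log2 ratio (-1.86 to 0.03) included 0. Esrra, an oestrogen-related receptor, and Tfam, which maintains mitochondrial DNA, had log2 ratios of -0.24 and 0.24. In the creatine system, Gatm and Gamt, the enzymes of creatine synthesis, were at 107 and 93.7 CPM and at 149 and 105 CPM, neither past 1.5-fold. Ckm, the muscle creatine kinase, had 78 UMIs in 13 Ctrl cells and 29 UMIs in dKO, all in 1 cell, so its dKO level of 46.9 CPM is that of a single cell and was not compared.

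The pattern of Ckb and Chchd10 over 11 classes in 2 libraries (22 points of log2(CPM + 10), 2833 genes) was most like that of different genes. For Ckb these were Oxct1 (Pearson r = 0.829), Nptn (0.812) and Ptms (0.807). For Chchd10 they were Prpf8 (0.80), Tfrc (0.798) and Acin1 (0.781). The points of a library share its depth and suspension, so the correlations are given as a description only.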

How the data were processed

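The authors deposited 10x count matrices for 2 libraries, with whole-number UMI counts per gene and cell and no normalization. The submitters' notes name Cell Ranger 7.0.0, Seurat 4.3.0, Cufflinks and mm10, whereas the matrix headers give software version 3.0.2, and the matrices held 0 mitochondrial genes, so mitochondrial filtering could not be repeated. Introns, strand and multimapping settings are not given in the sources used here, and pseudogenes could take UMIs of the members.

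Of 4527 Ctrl and 3483 dKO barcodes, 192 and 154 had fewer than 500 genes, and 325 and 250 were removed as doublets. Scrublet called only 4 and 14 cells by its own threshold, so the top 7.5% by score were taken out of each library instead. The 4335 and 3329 barcodes with at least 500 genes equal the cell numbers the study gives after its own doublet removal, so doublets may have been removed a second time here, and values without this removal are given in the closing section. Cells were clustered in Seurat 5.3.0 (R 4.3.3) on 2000 variable genes without the members (40 dimensions, resolution 0.8, both libraries integrated). Clusters were named from 17 marker lists (157 of 162 markers in the files) where at least 3 markers of a list were enriched and none of the other class lists held more of the 10 leading genes (for MuSC-like cells, 12 were enriched and 1 led, and the myogenic differentiation list was not among the class lists), and 263 Ctrl and 188 dKO cells stayed unnamed. Lymphatic endothelial-like cells (18 and 13) were left out of the class ranks.

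UMIs were summed per class and library and expressed as CPM, the count per 1000000 UMIs, of that class. Exact 95% Poisson intervals and conditional binomial intervals of ratios were computed in Python 3.11.15 (numpy 2.4.6, scipy 1.17.1, scanpy 1.11.5), after the code was tested on simulated data. Genes with a mean of at least 20 CPM were compared, at 1.5-fold between libraries and 2-fold between classes. All members could be named, and full values were given to those past 1.5-fold and to the 10 highest and 5 lowest of the MuSC-like to FAP-like ratio. The members and all gene lists were chosen with earlier results of these data known. The alternatives were other cell filters, no doublet removal, other clustering, other scaling, thinning to 2000 UMIs per cell, and leaving out differentiating, fibre-rich or top cells. Some genes of the pathway lists are not reported here.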

Additional observations from a re-analysis of the deposited data

Results flagged for a closer look

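MuSC-like cells were compared with FAP-like, MO/MP-like and EC-like cells for members with a mean of at least 20 CPM in MuSC-like cells, and other pairs of classes were not screened. For 2 members the libraries differed in opposite directions in MuSC-like and MO/MP-like cells, in each class with a counting interval that excluded 0. Idh3g, a regulatory subunit of isocitrate dehydrogenase 3, had a log2 ratio of dKO to Ctrl of 0.54 in MuSC-like cells (96.9 and 141 CPM) and of -0.22 in MO/MP-like cells (69.7 and 59.9 CPM). Its log2 ratio was 1.03 among the differentiating MuSC-like cells, of which dKO had 5, and 0.18 among the other MuSC-like cells. Mdh2, the mitochondrial malate dehydrogenase, had 0.42 in MuSC-like cells (490 and 654 CPM) and -0.30 in MO/MP-like cells (160 and 130 CPM). With 1 library per genotype the difference between the classes was not tested.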

How the results depend on the processing

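No paired analysis was possible because each genotype had 1 library. All values are log2 ratios unless called counts. The dKO to Ctrl ratio of the summed level in MuSC-like cells (-0.25) was -0.034 without differentiating cells, -0.46 without the top cell of each gene (which lowers the smaller pool more by construction), and, in alternatives chosen after seeing the data, -0.12 with no doublets removed and no differentiating cells and -0.16 when weighted to the Ctrl share of differentiating UMIs. The median ratio of members at 20 CPM or more (-0.16) reversed to 0.033 without differentiating cells (-0.18 over all 37 members) and was -0.26 with a 200-gene filter, -0.56 after thinning, -0.37 without top cells and -0.033 weighted. The 11 lower members became 7 with a 50 CPM filter. The count of higher members (0) was 1 with no doublets removed, with the 200-gene filter or without fibre-rich cells, 2 with the mean of each cell's CPM, without differentiating cells or weighted, and 4 after thinning. Members 2-fold higher than in FAP-like cells (14 in Ctrl) were 9 with cell means, 8 without differentiating cells and 9 with, in addition, no doublets removed. In dKO the 11 became 7 without top cells.

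In the next values the settings are, in order, no doublets removed, mean of each cell's CPM, median-ratio scaling, no differentiating cells, no fibre-rich cells, thinned, no top cells, and no doublets removed with no differentiating cells. For MuSC-like over FAP-like cells the summed ratio was 0.96 in Ctrl, against 0.91, 0.65, 0.77, 0.57, 0.90, 0.69, 0.88 and 0.64, and 0.81 in dKO, against 0.72, 0.46, 0.53, 0.64, 0.72, 0.48, 0.52 and 0.60. Over MO/MP-like cells it was 0.77 in Ctrl, against 0.72, 0.51, 0.42, 0.39, 0.71, 0.53, 0.70 and 0.46, and 0.75 in dKO, against 0.66, 0.41, 0.41, 0.58, 0.66, 0.45, 0.46 and 0.55. Over endothelial-like cells it was 1.35 in Ctrl, against 1.25 with no doublets removed, 1.02 with cell means, 0.96 without differentiating cells, 1.29 without fibre-rich cells, 1.04 thinned and 0.98 with no doublets removed and no differentiating cells. In dKO it was 1.2, against 1.04, 0.74, 1.03, 0.79 thinned, 1.00 without top cells and 0.93. All of these stayed above 0, and the causes of the shifts were not tested.

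Of the 11 lower members, Ech1, Eci1, Suclg2, Chchd10, Ckb, Echs1, Hadha and Sucla2 stayed past 1.5-fold in every alternative that gave a ratio. Idh2 did so in 11 of 13 (at most -0.36), Idh3b in 12 of 13 (-0.42 after thinning) and Etfb in 12 of 13 (-0.37 without differentiating cells). For 10 genes, 14 ratios could not be formed because the dKO pool held 0 UMIs. The 30 dKO MuSC-like cells limit the precision of every dKO value.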
